A study of Mus musculus with 6 samples.

Results

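The clustered histone genes are the genes of the Hist1, Hist2, Hist3, and Hist4 loci, which encode the linker histone H1 and the core histones H2A, H2B, H3, and H4. They were chosen by symbol alone, as every gene whose name places it in one of these loci and one of these histone classes. This gave 70 of the 49671 genes in the count table, 6 for H1, 20 for H2A, 19 for H2B, 12 for H3, and 13 for H4. The mean expected count over the 6 libraries was at least 1 for 60 of them, above 0 but under 1 for 3 (Hist1h3h, Hist3h2bb-ps, and Hist1h1t), and 0 for 7 (Hist1h2ba, Hist1h2aa, Hist2h2ab, Hist1h2bh, Hist1h4m, Hist1h2ao, and Hist1h2bm). The 60 genes lay mostly in the Hist1 locus on chromosome 13 (48 genes), with 9 in Hist2 on chromosome 3, 2 in Hist3 on chromosome 11, and 1 in Hist4 on chromosome 6. With RvD1, no clustered histone gene passed the adjusted threshold. Of the 30 genes with enough counts to test, 20 had a fold change below 0 (66.7%), as did 46.5% of all genes tested. The summed level of the 70 genes was 414 ± 81.4 CPM (reads scaled to a common library size, SD, n = 3) against 514 ± 32.7 CPM (SD, n = 3) with vehicle.

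Most of these genes are transcribed in S phase, when new DNA has to be wrapped around nucleosomes built from 4 kinds of core histone. Their mRNA usually has no poly(A) tail. It ends just after a short hairpin, the stem-loop, which is bound by SLBP and cut with the help of the U7 snRNP. Some histone genes can also give a longer, polyadenylated transcript, and these forms are known from differentiated and resting cells. MuSCs, the stem cells of skeletal muscle, divide in the first days after injury, so at that time both forms of histone mRNA can be present.

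MuSCs were obtained from female C57BL/6 mice aged 4 to 6 months, 3 treated with RvD1 and 3 with vehicle, and each mouse gave 1 library. Both groups received 50 μL of 1.2% BaCl2, which injures myofibers, in each tibialis anterior (TA) muscle, and the 2 TA muscles of a mouse were pooled at day 3. RvD1 (resolvin D1), a lipid mediator made from an omega-3 fatty acid, was injected IP at 100 ng daily for 72 hours, and vehicle was 0.1% ethanol. Cells were collected by FACS as β1-integrin+ CXCR4+ and Sca-1- CD11b- Ter119- CD45- (the labels also list CD31-), and no genetic change is named for either group. Their cDNA was primed on poly(A) with oligo(dT) and amplified, so transcripts that end at the stem-loop enter such libraries poorly, and the values below describe the histone RNA that was captured, not all of it. As the RNA came from pools of sorted cells, fewer cells in S phase and less histone RNA per cell cannot be told apart.

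Total expected counts ranged from 17962025 to 28149176 in the RvD1 libraries and from 16148026 to 18755643 in the vehicle libraries. All 10 MuSC and myoblast markers examined were detected, among them Myod1 at 356 TPM (a level scaled for transcript length, so that genes can be compared) and Pax7 at 5.41 TPM. Among markers of other cells, Ptprc (leukocytes) and Pecam1 (endothelial cells) were low, with means of 0.473 and 1.76 TPM. The leukocyte markers Lyz2 and Cd68 were not, with means of 34.6 and 8.07 TPM, both above Pax7. The other leukocyte markers examined averaged below Pax7, and the erythroid markers Hbb-bs and Hba-a1 averaged above it. The fibro-adipogenic marker Dcn was higher still, with a mean of 257 TPM and 450.3 TPM in RvD1 replicate 1.

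The letters at the 3′ ends of the genes show which of them have an annotated route to a poly(A) tail. GENCODE M21 models on GRCm38 (mm10) were found for 68 of the 70 genes by identifier, 3 of them pseudogenes. A hairpin of 6 base pairs with a loop of 4 bases was sought within 120 bases after the stop codon and found in 44 genes. Its 16 bases had to start with GG and end with CC, with at most 1 of the 6 pairs mismatched. Both the hairpin and the poly(A) signal were read on the gene's strand. The same rule held in 3.51% of 38237 other protein-coding transcripts with enough sequence after the stop. In 24 of the 44 genes the hairpin had the same 16 letters, and 7 H4 genes shared another form. The hairpins of the genes described most below are shown 5′ to 3′ with the 16 bases of stem and loop in capitals, because their place in the model separates genes whose model stops there from genes whose model runs on.
Hist1h2ap (chr13:21833029-21833044, minus strand): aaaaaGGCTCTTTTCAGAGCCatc
Hist1h2ae (chr13:23570668-23570683, minus strand): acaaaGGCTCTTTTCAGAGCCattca
Hist1h2ag (chr13:22042483-22042498, minus strand): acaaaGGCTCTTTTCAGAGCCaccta
Hist1h1c (chr13:23739512-23739527, plus strand): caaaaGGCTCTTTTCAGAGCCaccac
Hist1h3g (chr13:23535889-23535904, plus strand): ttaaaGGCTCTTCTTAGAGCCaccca
Hist1h4d (chr13:23581950-23581965, plus strand): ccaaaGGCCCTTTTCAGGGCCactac
Hist1h4i (chr13:22040966-22040981, minus strand): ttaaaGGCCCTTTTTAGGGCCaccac

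A gene was taken to have an annotated polyadenylated end where a model of it held AATAAA or ATTAAA 10 to 40 bases before its last base. This was so for 15 of the 60 genes with a mean of at least 1 count, or 25%, and for Hist1h1t among the rarer ones. Of the protein-coding transcripts of other genes, 48.3% had such an end, a share counted by transcript and not by gene. With AATAAA alone the share of the 60 genes was 21.7%. The last bases of 4 such genes are shown with the signal in capitals, because these are ends from which oligo(dT) could prime.
Hist1h1c (chr13:23740342-23740347, plus strand): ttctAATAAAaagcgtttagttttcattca
Hist1h2ae (chr13:23570539-23570544, minus strand): ccAATAAAtgggtcaatttttttcagattc
Hist1h4i (chr13:22040651-22040656, minus strand): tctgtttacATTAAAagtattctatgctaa
Hist2h2be (chr3:96223717-96223722, plus strand): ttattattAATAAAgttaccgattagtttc

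The stem-loop and the poly(A) signal stood in the same model in most of these genes. In Hist1h1c the model ran 840 bases past the stem-loop, in Hist1h4i 330 bases, and in Hist1h2ae 151 bases, and in Hist2h2be no stem-loop was found. The other genes with a signal were Hist3h2a, Hist1h2be, Hist2h3c1, Hist1h4h, Hist1h2bq, Hist1h2br, Hist1h4j, Hist1h2bp, Hist2h4, Hist3h2ba, and Hist1h4a. Another 12 genes, among them Hist1h2bc, Hist1h4d, Hist1h1e, and Hist1h4c, had a model that reached over 100 bases past the stem-loop or was spliced but held no signal at its end. The model ended within 100 bases of the stem-loop in 18 of the 60 genes and held no stem-loop in 15, such as Hist1h1a and Hist1h1b. Most of these 15 models stop at or shortly after the stop codon, 48 bases past it in Hist1h1a and 0 in Hist1h1b. The search had little or no sequence there, so these genes cannot be said to lack a stem-loop. A model without a signal says only that these letters are not annotated at its end.

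The captured RNA came mainly from a few genes, and the most abundant had no annotated poly(A) signal. Hist1h2ap, an H2A gene (ENSMUSG00000094777, chr13:21833026-21833507) whose model ends 3 bases past the stem-loop, had a mean of 1188 TPM. The H2B gene Hist1h2bc followed at 59.7 TPM, and then came Hist1h2ae (H2A) at 46.2 TPM, Hist1h4d (H4) at 28.4 TPM, Hist1h4i (H4) at 27.4 TPM, Hist1h1c (H1) at 22.3 TPM, and Hist1h1b (H1) at 10.9 TPM. Each of the other genes averaged under 10 TPM. Hist1h2ap alone took between 56% and 69.5% of the expected counts of the 70 genes in a library, and the 5 genes with the most counts together took between 83.1% and 87.9%. All 70 genes together held between 0.0331% and 0.0537% of a library's counts. Genes with a signal held between 13% and 18.9% of the histone counts, with the highest share in RvD1 replicate 1. The median level was 2.16 TPM over the 15 genes with a signal, 1.62 TPM over the 12 longer models without one, and 2.92 TPM over the 18 that end near the stem-loop. It was 1.08 TPM over the 15 whose model holds no stem-loop, most of which are cut short near the stop codon.

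**Figure D1:**
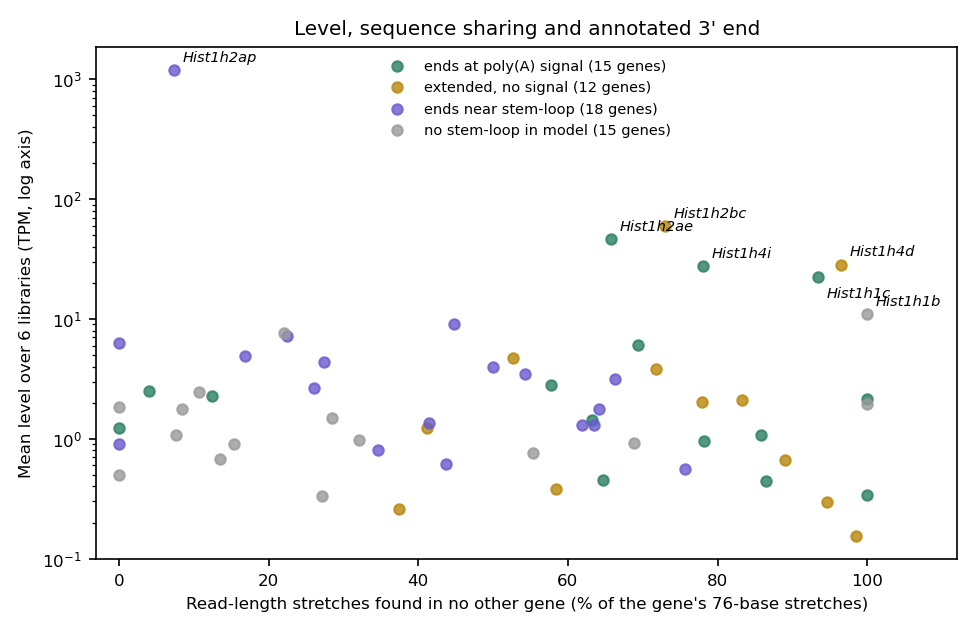
Mean level over the 6 libraries (TPM, log axis) of the 60 genes with a mean of at least 1 count, against the percentage of each gene's 76-base stretches that occur in no other annotated gene, with colors for the annotated 3′ end. Hist1h2ap stands apart at 1188 TPM with 7.37% of its stretches to itself, and the other genes lie below 60 TPM at every degree of sharing.

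How firmly a level belongs to its gene differed greatly, because the coding regions of a histone class are nearly alike and RSEM divides a 76-base read that matches several genes. The percentage of a gene's 76-base stretches that occur in no other annotated gene had a median of 54.8% over the 60 genes and was under 50% in 27. It was 0 in Hist2h2aa2, Hist2h2aa1, Hist2h3c1, Hist2h2bb, and Hist2h3b, and it was 100% in Hist1h1b, Hist2h2be, Hist1h1a, and Hist2h4. In Hist1h2ap it was 7.37%, and 92.6% of the stretches recurred in Hist1h2ao, to which no count was assigned in any library. The 1188 TPM of Hist1h2ap is therefore the level of a group of H2A sequences as RSEM divided it. It was 65.8% in Hist1h2ae, 78.1% in Hist1h4i, and 96.5% in Hist1h4d. Hist3h2a shared 30.6% with the overlapping gene Trim17, and reads from the 2 genes cannot be told apart there. Beyond sharing, few genes had depth, since 33 of the 60 had a mean of at least 10 counts.

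RvD1 was compared with vehicle to learn how the treatment relates to gene expression in MuSCs. edgeR's quasi-likelihood test was run on 14494 genes, of which 30 were clustered histone genes, with Benjamini-Hochberg adjustment over all of them. None of the 14494 genes had an adjusted P under 0.05 (0% of those tested), DESeq2 also gave 0, and 503 had an unadjusted P under 0.05 in edgeR. The 30 histone genes had a median log2 fold change of -0.22, against 0.01 over all genes, with 20 below 0 and 10 above. Of all genes tested, 46.5% were below 0. At an unadjusted P under 0.05, 5 of the 30 (16.7%) were lower with RvD1, and 1.64% of all genes tested were. At the same threshold 0 of the 30 were higher, against 1.83% of all genes. In 4 of the 30 every RvD1 library was below every vehicle library, against 4.84% of all genes, and in 0 every RvD1 library was above, against 4.77%. Since no adjusted P was under 0.971 for any of the 30, these genes are described by their values.

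**Figure D2:**
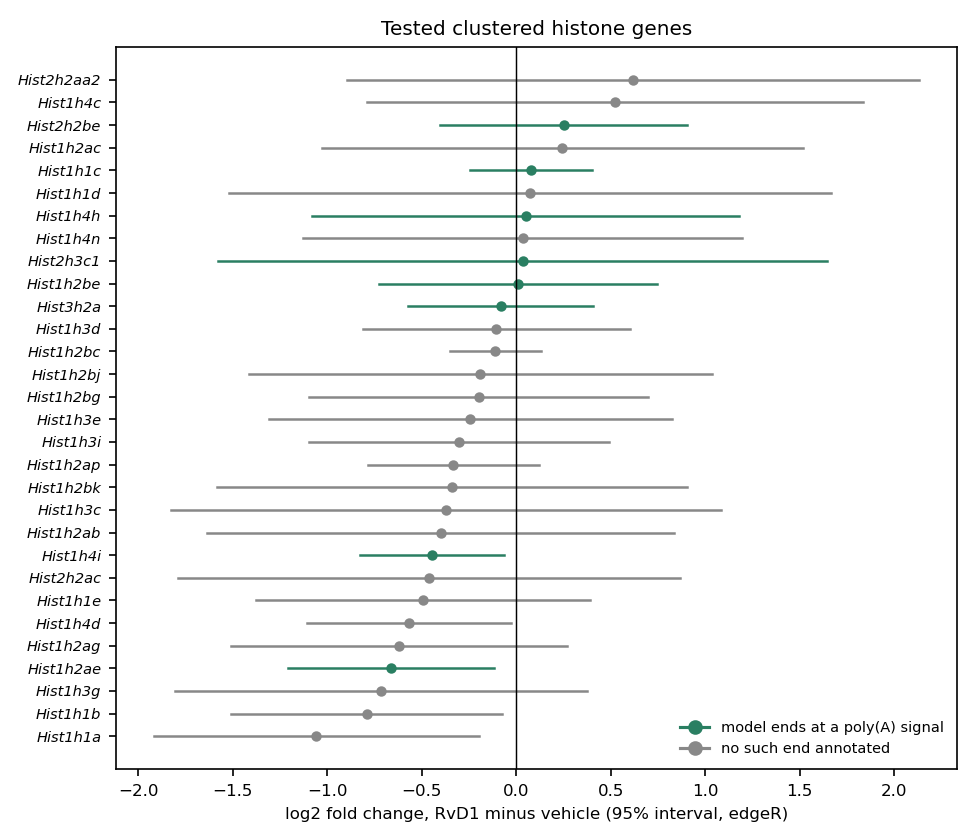
The log2 fold change (RvD1 minus vehicle) of the 30 tested clustered histone genes with 95% intervals from edgeR, in green where the model ends at a poly(A) signal and in gray elsewhere. The intervals of Hist1h1a, Hist1h1b, Hist1h2ae, Hist1h4d, and Hist1h4i lie below 0, those of the other 25 genes include 0, and no gene passed the adjusted threshold.

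Linker histones bind the DNA between nucleosomes, and their 5 detected genes split in direction. Hist1h1a, which encodes H1.1 and shares no 76-base stretch with another gene, had 0.498, 0.571, and 0.499 CPM in RvD1 replicates 1, 2, and 3 and 1.05, 1.27, and 0.977 CPM in vehicle replicates 1, 2, and 3. The groups did not overlap, and the counts behind them were small, between 9 and 22 per library. Its log2 fold change was -1.06 (SE 0.38), with an adjusted P of 0.971 (edgeR, Benjamini-Hochberg) and an unadjusted P of 0.0215. Hist1h1b, which encodes H1.5, had 2.08, 4.53, and 3.44 CPM with RvD1 and 6.32, 4.48, and 6.67 CPM with vehicle. RvD1 replicate 2 and vehicle replicate 2 met at about the same level, and the log2 fold change was -0.79 (SE 0.32, unadjusted P = 0.0341, adjusted P = 0.971 in edgeR).

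Hist1h1c, which encodes H1.2 and whose model has a poly(A) end, had overlapping groups. It was measured at 23.8, 20.8, and 18.7 CPM with RvD1 and 20.4, 21.7, and 17.9 CPM with vehicle, and its log2 fold change was 0.08 with a 95% interval from -0.24 to 0.40. Hist1h1e, which encodes H1.4, ranged from 2.20 to 5.84 CPM with RvD1 and from 3.54 to 6.28 CPM with vehicle, and the groups overlapped. Hist1h1d, which encodes H1.3, had a log2 fold change of 0.07 with an interval from -1.52 to 1.66. The summed level of the 6 H1 genes was 29.4 ± 3.13 CPM (SD, n = 3) with RvD1 and 32.8 ± 1.90 CPM (SD, n = 3) with vehicle, and the libraries overlapped.

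H2A and H2B form the dimers at the outer faces of the nucleosome. Hist1h2ap had 179.5, 308, and 316 CPM in RvD1 replicates 1, 2, and 3 and 334, 375, and 303 CPM in vehicle replicates 1, 2, and 3. RvD1 replicate 1 stood well below the rest, while the other RvD1 libraries lay within reach of vehicle replicate 3. The log2 fold change was -0.33 (SE 0.20), and the adjusted P was 0.971 (edgeR, Benjamini-Hochberg). Hist1h2ae, an H2A gene with a poly(A) end, had 9.02, 15.7, and 17.5 CPM with RvD1 and 25.5, 22.3, and 18.9 CPM with vehicle. Every RvD1 library was below every vehicle library, the vehicle level was 1.58 times that with RvD1, and the log2 fold change was -0.66 (SE 0.24, unadjusted P = 0.0226, adjusted P = 0.971 in edgeR).

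The groups also did not overlap in Hist1h2ag, an H2A gene with 0.80 to 1.997 CPM in the RvD1 libraries and 2.01 to 2.60 CPM in the vehicle libraries, but the highest RvD1 and the lowest vehicle value nearly touched. Its log2 fold change was -0.62 with an interval from -1.51 to 0.27, and 22.4% of its 76-base stretches were its own. Hist1h2ab ranged from 0.803 to 2.89 CPM with RvD1 and from 1.15 to 4.10 CPM with vehicle. Hist3h2a, an H2A gene with a poly(A) end, had 6.52 to 8.44 CPM with RvD1 and 6.69 to 10.1 CPM with vehicle, and its log2 fold change of -0.08 became 0.01 in TPM. Hist2h2aa2, which has no 76-base stretch of its own, had the largest value above 0 among the tested genes, a log2 fold change of 0.62. Its libraries spread from 0.248 to 3.58 CPM, and the interval ran from -0.89 to 2.13. Without Hist1h2ap, the other 19 H2A genes summed to 26.9, 34.3, and 32.5 CPM with RvD1 and 42.2, 38.3, and 41.2 CPM with vehicle, which did not overlap.

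Hist1h2bc, the leading H2B gene, had 41.5, 38.9, and 35.4 CPM with RvD1 and 39.8, 42.0, and 43.3 CPM with vehicle. The groups overlapped, and the interval of the log2 fold change, from -0.35 to 0.13, was the narrowest of the 30 genes. Hist2h2be, an H2B gene with a poly(A) end and no shared stretch, ranged from 2.498 to 4.53 CPM with RvD1 and from 2.83 to 3.41 CPM with vehicle. The log2 fold change was 0.25 with an interval from -0.40 to 0.90. Hist1h2bg ranged from 1.26 to 1.70 CPM with RvD1 and from 0.974 to 2.52 CPM with vehicle. In none of the 6 tested H2B genes was the unadjusted P under 0.05.

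**Figure D3:**
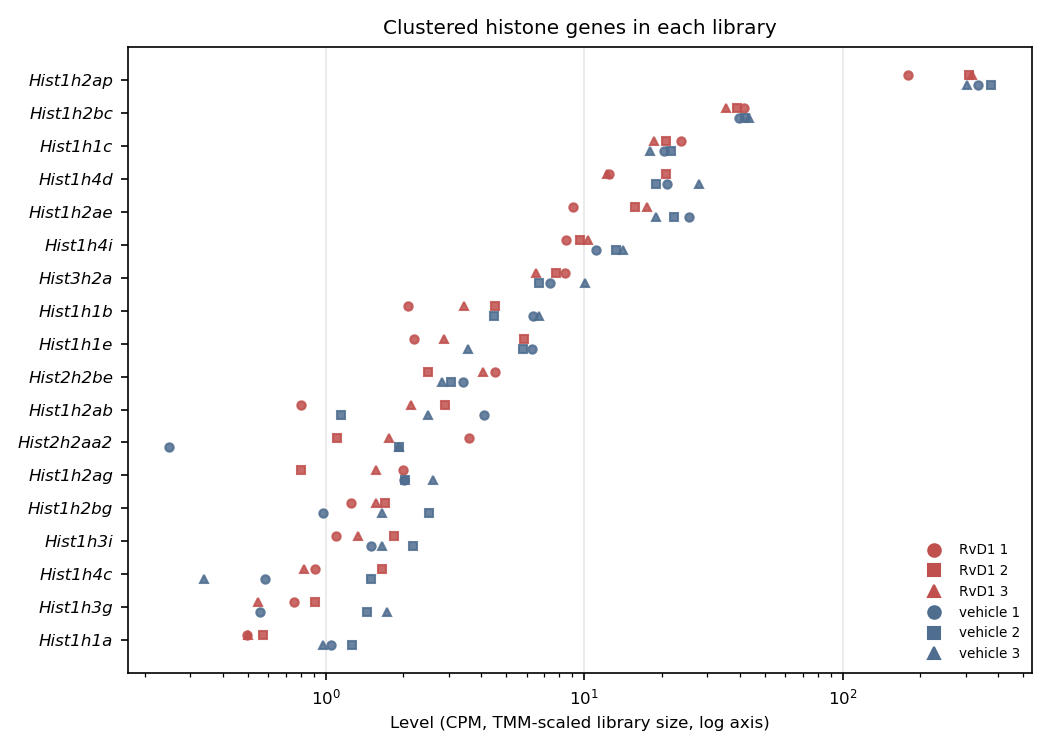
Level in CPM (TMM-scaled library sizes, log axis) of the 18 tested clustered histone genes that are named with values, with 1 point per library (red RvD1, blue vehicle, symbol by replicate number). Hist1h1a, Hist1h2ae, Hist1h4i, and Hist1h2ag have all red points to the left of all blue points, and in Hist1h2ap RvD1 replicate 1 lies apart at 179.5 CPM.

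H3 and H4 form the core tetramer of the nucleosome, and H4 is encoded by genes whose protein is the same although their RNA differs. Hist1h4d had 12.5, 20.8, and 12.2 CPM in RvD1 replicates 1, 2, and 3 and 20.9, 18.9, and 28.0 CPM in vehicle replicates 1, 2, and 3. RvD1 replicate 2 lay among the vehicle libraries. The log2 fold change was -0.57 (SE 0.24, unadjusted P = 0.0414, adjusted P = 0.971 in edgeR). Hist1h4i, whose model has a poly(A) end, had 8.50, 9.62, and 10.3 CPM with RvD1 and 11.2, 13.3, and 14.2 CPM with vehicle. The groups did not overlap, and the log2 fold change was -0.44 (SE 0.17, unadjusted P = 0.0270, adjusted P = 0.971 in edgeR). Hist1h4c lay on the other side of 0, with 0.824 to 1.65 CPM with RvD1 and 0.339 to 1.504 CPM with vehicle (log2 fold change 0.52, SE 0.58).

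The H3 genes were rare in these libraries. The most counted, Hist1h3i, ranged from 1.10 to 1.84 CPM with RvD1 and from 1.501 to 2.17 CPM with vehicle (log2 fold change -0.30, SE 0.35). Hist1h3g, whose stem-loop differs from the common form, had 0.755, 0.911, and 0.550 CPM with RvD1 and 0.556, 1.45, and 1.73 CPM with vehicle. Its groups overlapped, and the log2 fold change was -0.72 (SE 0.48). Of the 6 tested H3 genes 5 were below 0, with no unadjusted P under 0.05.

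The test left out 30 of the 60 genes with a mean of at least 1 count, and in 3 of these with a mean of at least 3 counts every RvD1 library was below every vehicle library in CPM. Such a separation was found in 4.84% of the 14494 genes tested. Its share over all untested genes was not computed, so these 3 are given by their values only. Hist1h2br (H2B) had 0.01, 7.08, and 0 expected counts with RvD1 and 26.6, 8.28, and 11.5 with vehicle, but 87.5% of its stretches recur in Hist1h2bq. Hist1h3a had 0, 4.07, and 4.26 expected counts with RvD1 and 4.25, 15.6, and 13.8 with vehicle, and the groups were apart only after scaling to library size. Hist1h2bb had 6.59, 3.44, and 3.12 expected counts with RvD1 and 7.91, 10.9, and 7.94 with vehicle. The rarer Hist1h4a was at 0 in every RvD1 library and at 6.36, 3.43, and 3.85 expected counts in the vehicle libraries, close to the floor of 3 counts below which a count cannot be told from 0. Hist2h3b (H3), named after its values were seen because it showed the opposite pattern, was at 3.84, 3.13, and 8.28 expected counts with RvD1 and at 0 in every vehicle library, and none of its 76-base stretches is its own. That floor corresponded to between 0.107 and 0.186 CPM in the 6 libraries and covers counting error only.

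Summed over all 70 genes, the level was 320.5, 467, and 455 CPM in RvD1 replicates 1, 2, and 3 and 509, 549, and 484 CPM in vehicle replicates 1, 2, and 3. Every RvD1 library was below every vehicle library, and the difference of the mean log2 sums was -0.33. RvD1 replicate 1 set much of that size, and without it the difference was -0.16, with the remaining 2 RvD1 libraries still below the vehicle libraries. In summed TPM the groups overlapped, at 1010 to 1572 with RvD1 and 1478 to 1747 with vehicle. Without Hist1h2ap the sum was 141, 159, and 139 CPM with RvD1 and 175, 174, and 182 CPM with vehicle, so the separation did not depend on that gene. In TPM the sums without Hist1h2ap were also apart, at 263, 304, and 276 with RvD1 and 345, 330, and 339 with vehicle. The H4 and H2A sums had mean log2 differences of -0.46 and -0.37, and those of H3, H1, and H2B were -0.26, -0.16, and -0.15. The groups were apart in the H4 and H2B sums and overlapped in the other 3, but the H2B sums overlapped when scaled to library totals and the H4 sums overlapped in TPM.

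**Figure D4:**
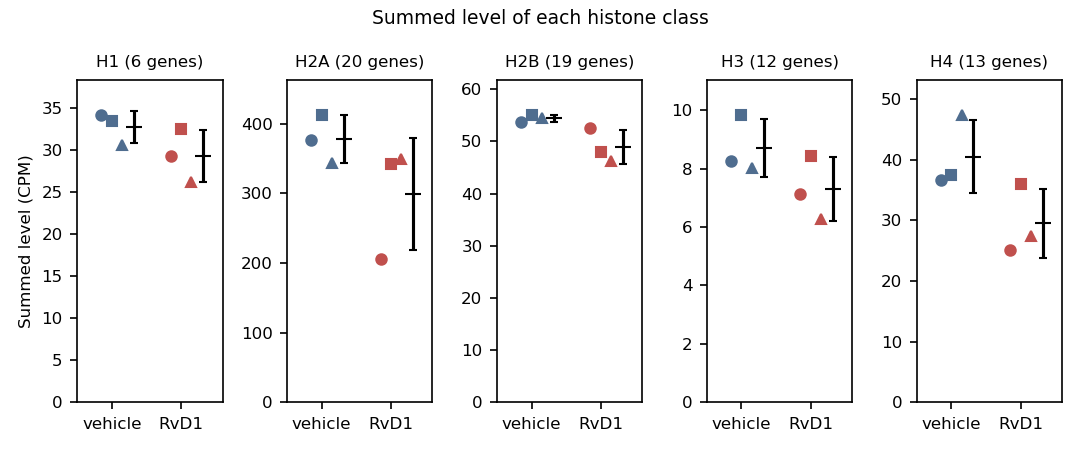
Summed level in CPM of each histone class in the 6 libraries, with the mean and SD (n = 3) beside each group's points and axes that start at 0. RvD1 lies below vehicle without overlap for H2B (46.3 to 52.5 against 53.6 to 55.1 CPM) and H4 (25.2 to 36.0 against 36.6 to 47.5 CPM), by a small margin in both.

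Genes with and without an annotated poly(A) end were compared because the library chemistry favors the former. The 16 genes with a signal summed to 60.4, 60.6, and 61.9 CPM with RvD1 and 77.7, 73.4, and 69.0 CPM with vehicle. The RvD1 libraries were nearly equal and all below the vehicle libraries, with a difference of -0.27 on the log2 scale. The 54 genes without a signal summed to 260, 407, and 393 CPM with RvD1 and 431, 476, and 415 CPM with vehicle, also apart, with a difference of -0.35 that became -0.14 without RvD1 replicate 1. In TPM the sums of the genes with a signal remained apart, and those of the genes without one overlapped, at 916.5 to 1459 with RvD1 and 1358 to 1619 with vehicle. The former include Hist1h2bq and Hist1h2br, at 9.15 and 8.66 TPM in vehicle replicate 1 and at most 0.47 and 0.19 TPM with RvD1. Their counts and TPM imply lengths of 528 and 382 bases, closest to their 381-base models, which hold no signal. The TPM sum without these genes was not computed. Gene by gene, the 8 tested genes with a signal had a median log2 fold change of 0.02 with 3 below 0, and the 22 without a signal had a median of -0.32 with 17 below 0. In the genes with a signal, the sum and the median lay on different sides of 0, and the largest differences within the sum were those of Hist1h2ae and Hist1h4i. Whether the kinds of 3′ end differed in their response was not tested. Among the 21 tested genes with at least 50% of their stretches to themselves, 5 (23.8%) were lower at an unadjusted P under 0.05 in edgeR. Among the 9 with less, 0 were, and 1.64% of all genes tested were. With so few genes the 2 sets cannot be told apart by these counts. Both had 66.7% of their genes below 0, with medians of -0.19 and -0.30.

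RvD1 replicate 1 also had the lowest level of S-phase genes, which is given here because clustered histone genes are expressed in that phase. The 16 S-phase genes examined, such as the DNA polymerase clamp Pcna, the helicase subunits Mcm2 to Mcm7, and the ribonucleotide reductase subunits Rrm1 and Rrm2, summed to 3593, 5360, and 5414 CPM in RvD1 replicates 1, 2, and 3. In vehicle replicates 1, 2, and 3 they summed to 4867, 5239, and 5496 CPM. The groups overlapped. Of the 16 genes, 15 had a fold change below 0 (93.8%), as did 46.5% of all genes tested. None of the 16 had an unadjusted P under 0.05 in edgeR. RvD1 replicate 1 was the lowest of the 6 libraries in 12 of the 30 histone genes (40%) and in 29.5% of all genes tested. Per 1000 CPM of S-phase genes, the clustered histone genes had 89.2, 87.2, and 84.0 CPM with RvD1 and 105, 105, and 88.1 CPM with vehicle, and on this scale the groups overlapped, with RvD1 replicate 1 above vehicle replicate 3. The part of S-phase content in the histone values was not tested further.

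**Figure D5:**
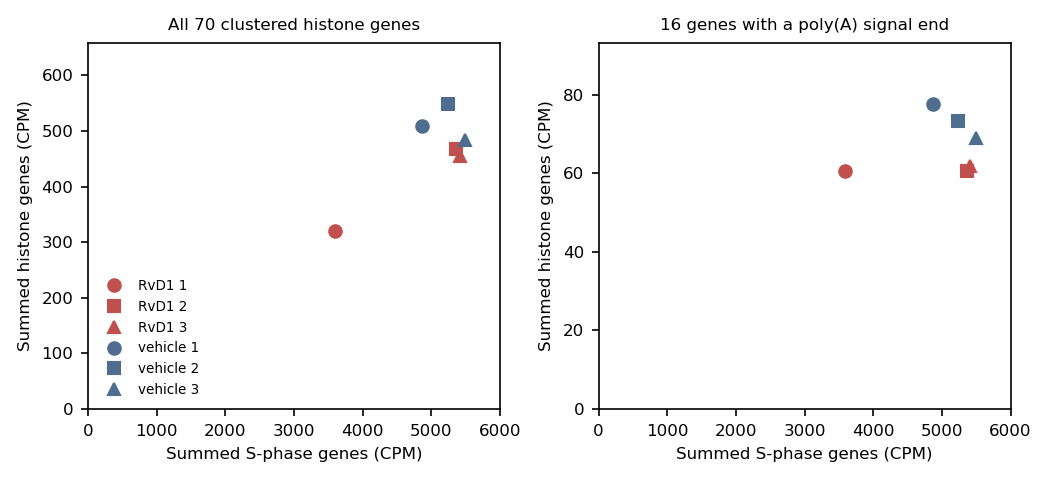
Summed level of clustered histone genes against summed level of 16 S-phase genes in each library, both in CPM on axes from 0, for all 70 histone genes (left) and for the 16 with a poly(A) signal end (right). RvD1 replicate 1 is low in S-phase genes (3593 CPM) and in all histone genes (320.5 CPM), and in the right panel it lies level with the other RvD1 libraries at 60.4 CPM.

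Histone genes outside the clusters, most of which are expressed throughout the cell cycle from polyadenylated mRNA, were measured far more strongly. The 11 examined summed to 4740 ± 288 CPM (SD, n = 3) with RvD1 and 5287 ± 267 CPM (SD, n = 3) with vehicle, and 9 had a fold change below 0. H2afz, the H2A.Z variant placed at promoters, was at 1685 ± 314 and 2118 ± 178 CPM (SD, n = 3) and had a log2 fold change of -0.33 (SE 0.14), the same size as that of Hist1h2ap, with an unadjusted P of 0.0442 in edgeR. H3f3b and H3f3a, which both encode H3.3, had log2 fold changes of 0.02 and -0.16, and H2afy, which encodes macroH2A1, had -0.09. The other 7 ranged from -0.18 to 0.11.

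Fold changes were small in the genes that make histone mRNA and carry histones. Slbp, whose protein binds the stem-loop, was at 278 ± 28.1 CPM with RvD1 and 290 ± 8.45 CPM with vehicle (SD, n = 3), with a log2 fold change of -0.06. Of the 16 genes for processing and transcription of histone mRNA, 10 were below 0 and none had an unadjusted P under 0.05. Their values included -0.05 for the cap-binding Ncbp1, -0.12 for the cleavage factor Cstf2, -0.07 for Srrt, and -0.12 for Cpsf3, the endonuclease that cuts after the stem-loop. Of the 16 histone chaperones 9 were below 0, again with none at an unadjusted P under 0.05. Ssrp1, a subunit of FACT, had -0.12, Nap1l1 had -0.18, Nap1l4 had -0.04, and Nasp, which carries H3 and H4, had -0.21. The medians of the processing, chaperone, and S-phase lists were -0.06, -0.04, and -0.12, against 0.01 over all genes and -0.22 over the clustered histone genes.

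Markers of other cell types were set beside the histone sum. Of the 10 leukocyte markers 7 could be tested, and 6 of these were below 0. Lyz2 had an unadjusted P of 0.00953 (adjusted P = 0.971 in edgeR), and the other 6 had none under 0.05. Summed, the 10 had 23.1 to 39.3 CPM with RvD1 and 34.1 to 64.6 CPM with vehicle, and the groups overlapped. Of the 5 endothelial markers 4 were below 0, with sums of 6.05 to 18.2 CPM with RvD1 and 6.96 to 22.5 CPM with vehicle. The 4 erythroid markers summed to 1.15 to 16.1 CPM with RvD1 and 5.11 to 14.02 CPM with vehicle, and both that could be tested were below 0. Of the 5 fibro-adipogenic markers 4 were above 0, and their sum was 515, 231, and 331 CPM in RvD1 replicates 1, 2, and 3 and 254, 264, and 301 CPM in vehicle replicates 1, 2, and 3. RvD1 replicate 1, the library with the lowest histone sum, was thus the highest in this sum, of which Dcn made up 446 CPM. In Pdgfra it was at 13.3 CPM, slightly below RvD1 replicate 3 at 13.6 CPM. The remaining fibro-adipogenic marker, Ly6a, which encodes the Sca-1 used to exclude cells, was lower in every RvD1 library (log2 fold change -0.62, SE 0.20, unadjusted P = 0.0141, adjusted P = 0.971 in edgeR). The 10 MuSC and myoblast markers had a median log2 fold change of 0.05. Among them RvD1 replicate 1 was the highest library in Pax7, Myf5, Vcam1, Itgb1, and Cxcr4. It was the lowest in Myod1, Des, and Itga7, and neither in Myog and Cdh15. No marker was at 0 in every library, and Ptprc had a mean of 16.8 counts. The part of RNA from other cells in the histone values was not tested.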

How the data were processed

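RNA-Seq was analysed for MuSCs of 3 RvD1-treated and 3 vehicle-treated mice. STAR (mm10) and RSEM were run by the authors on single reads of 76 bases. The deposited expected counts are unscaled per-gene estimates, in which a read matching several genes is divided among them. TPM, as deposited, corrects for transcript length and sets a common total per library. FPKM values were not used. Methods and labels differ in RNA input (10 ng and 1 ng).

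Expected counts were rounded and tested over all genes with edgeR 4.0.16 in R 4.3.3 (TMM, filterByExpr, quasi-likelihood test, Benjamini-Hochberg adjustment). CPM used TMM-scaled library sizes. Standard errors were derived from fold changes and test statistics. Stem-loops, poly(A) signals, and shared 76-base stretches were computed from GENCODE M21 transcripts. For single-transcript genes, the ratio of count to TPM gave lengths within 2% of these models, as it did for 56 of the 60 reported histone genes. The exceptions, Hist1h2be, Hist1h2bp, Hist1h2bq, and Hist1h2br, have several models and count as genes with a poly(A) signal.

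Members and gene lists were chosen with earlier results of these data known. Genes named with values were the 15 with the largest mean count, in each direction the 3 with the smallest unadjusted P and the 3 with the largest fold change, those whose groups did not overlap in CPM at a mean of at least 3 counts, and Hist1h4a. From the lists of other histone, processing, and chaperone genes the 4 with the largest mean count and Slbp were named. S-phase genes, cell type markers, and Hist2h3b were named after their values were seen. Genes given without sample values complete counts. Sums over genes were described without a test.

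Alternatives were DESeq2 1.42.0, RLE factors, library totals, no count filter, limma-voom 3.58.1 with 1 surrogate variable from sva 3.50.0 removed, a replicate block, TPM with pseudocounts of 1 and 0.1, and each replicate left out. The edgeR test was also run on simulated counts. At an adjusted P under 0.05 it recovered 53 of 100 changes of 2-fold and 87 of 100 changes of 4-fold, with 17 false calls. The changed genes were drawn at random from all genes tested, so recovery was not measured for the histone genes or for smaller changes. Replicate numbers belong to different mice. With 1 library per mouse, P values rest on the spread between libraries, in which mouse, sorting, and library preparation cannot be separated. Same-numbered libraries correlated at 0.31, -0.00071, and 0.13 in their deviations from the group means, and the libraries were not treated as paired.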

Additional observations from a re-analysis of the deposited data

How the results depend on the processing

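Over 14 alternatives, 245 of 252 log2 fold changes of the 18 named and tested histone genes kept their direction, and none had an adjusted P under 0.05. The 7 that reversed were in 4 genes. Hist3h2a was at 0.0086 and 0.0112 in TPM with pseudocounts of 1 and 0.1, and the other reversals came with a library left out, over which the ranges were -0.20 to 0.11 in Hist3h2a, -0.0156 to 0.1543 in Hist1h1c, -0.8284 to 0.0896 in Hist1h2ab, and -0.47 to 0.17 in Hist1h2bg. Genes with an adjusted P under 0.05 numbered 12 without a count filter and 0 to 1 over the libraries left out, with none of the histone genes among them. Histone genes with an unadjusted P under 0.05 numbered 5 in the reported test, 12 without a filter, 16 in limma-voom with a surrogate variable removed (63 histone genes tested in both, 10 and 15 of those lower), 3 in TPM with a pseudocount of 0.1, and 3 to 6 over the libraries left out. Of all genes, the share lower at that threshold was 1.64% in the reported test, 1.66% without a filter, 5.32% in limma-voom, 1% in TPM with a pseudocount of 0.1, and 0.687% to 2.88% over the libraries left out. The 3 were found without vehicle replicate 1 and without vehicle replicate 2.

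The median log2 fold change of the histone genes stayed below 0 throughout, at -0.39 without RvD1 replicate 2, -0.11 without RvD1 replicate 1, -0.09 in limma-voom with a surrogate variable removed, and -0.06 and -0.10 in TPM with pseudocounts of 1 and 0.1. The difference of the summed level ranged from -0.43 to -0.16 over the libraries left out. For genes with a poly(A) signal it was -0.38 in TPM, with Hist1h2bq and Hist1h2br included, and -0.42 without Hist1h1c. Counting models that run over 100 bases past the stem-loop or are spliced, a rule added after seeing the data, raised the share with a polyadenylated end to 45%. With the replicate number as a block, 0 genes had an adjusted P under 0.05, 6 histone genes had an unadjusted P under 0.05 (3.02% of all genes were lower at it), and their median was -0.18. Same-numbered libraries did not all deviate together (correlations of 0.31, -0.00071, and 0.13). Depth limited the 27 genes with a mean between 1 and 10 counts, and sharing limited the 27 with under 50% of their sequence to themselves.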
